A study of Rattus norvegicus with 9 samples.

Results

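The circadian clock genes examined here were 10 of the 40154 gene rows measured in rat liver: Arntl, Clock, Npas2, Per1, Per2, Cry1, Nr1d1, Nr1d2, Dbp and Tef. They were taken by name as the core feedback loop and its output factors; the rule uses no measured level, but the genes were proposed with earlier results of these data known. RNA was sequenced from whole livers of wild-type Sprague-Dawley rats aged 5 months, in 3 groups of 3 libraries each. Normal livers had seen neither carbon tetrachloride (CCl4), a liver toxin given to cause cirrhosis, nor a transplant. PBS livers were cirrhotic and came from rats injected with phosphate-buffered saline. HepLPC livers were cirrhotic and came from rats that received an injection of rat HepLPCs, progenitor-like cells derived from hepatocytes. Toxin and injection both separate the normal rats from the others, so their effects cannot be told apart. The sources used here do not give the hour of day, the lighting or the feeding state at collection. Nothing in the titles says that replicates come from different rats, and p-values therefore measure only the spread between these libraries, which may be technical.

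The clock is a transcription loop that turns over once a day. CLOCK, or its relative NPAS2, pairs with the Arntl product BMAL1 and activates genes with an E-box, among them the Per, Cry, Nr1d1, Nr1d2, Dbp and Tef genes. PER and CRY proteins then repress that activation, and the Nr1d1 and Nr1d2 products, REV-ERB alpha and beta, repress Arntl, Npas2 and Clock through ROR elements. DBP and TEF bind D-boxes and carry the rhythm to liver enzymes, many of them in drug, bile acid and lipid metabolism. In rodent liver the REV-ERB genes peak first, then Dbp, then the Per genes, while Arntl and Npas2 peak near the opposite side of the day.

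Promoters of the loop genes were searched for these elements. RefSeq promoter entries (build GRCr8) matched 9 of the 10 genes, Arntl under its current symbol Bmal1; Cry1 had no entry. Motifs were sought on both strands in the 250 bases before each start. The E-box was searched as CACGTG, its variant as CACGTT, the D-box as TTATGTAA and the ROR element as TAGGTNA with AAN before it, where N is any base, and no motif contains another. Of 33360 such windows over all entries, 5.61% held CACGTG, 4.07% CACGTT, 0.83% TTATGTAA and 0.638% the ROR element. Windows of 4 clock genes held a match, and they are printed to show where elements of the loop lie; capitals mark the matches. A match is a description of letters and not of binding.
Arntl (chr1:176766078-176766327, plus strand), with 2 ROR elements: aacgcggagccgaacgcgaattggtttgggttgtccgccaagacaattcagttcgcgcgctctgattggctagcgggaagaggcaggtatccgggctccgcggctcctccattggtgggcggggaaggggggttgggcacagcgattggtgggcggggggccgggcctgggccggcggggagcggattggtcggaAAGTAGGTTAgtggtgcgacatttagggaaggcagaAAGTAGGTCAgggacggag
Per2 (chr9:99496994-99497243, minus strand), with a D-box and a CACGTT: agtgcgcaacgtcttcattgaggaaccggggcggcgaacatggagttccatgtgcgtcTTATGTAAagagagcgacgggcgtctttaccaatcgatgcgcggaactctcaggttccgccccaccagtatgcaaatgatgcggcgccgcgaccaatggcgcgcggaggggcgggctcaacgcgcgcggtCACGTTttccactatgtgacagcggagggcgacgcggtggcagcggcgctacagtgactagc
Nr1d1, second listed start (chr10:84229455-84229704, minus strand), with an E-box: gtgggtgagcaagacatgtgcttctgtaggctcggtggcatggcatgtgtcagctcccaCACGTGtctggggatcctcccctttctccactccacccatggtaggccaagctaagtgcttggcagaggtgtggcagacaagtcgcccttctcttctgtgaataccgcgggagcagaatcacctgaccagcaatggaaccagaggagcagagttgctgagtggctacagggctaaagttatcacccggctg
Tef (chr7:115206577-115206826, plus strand), with an E-box: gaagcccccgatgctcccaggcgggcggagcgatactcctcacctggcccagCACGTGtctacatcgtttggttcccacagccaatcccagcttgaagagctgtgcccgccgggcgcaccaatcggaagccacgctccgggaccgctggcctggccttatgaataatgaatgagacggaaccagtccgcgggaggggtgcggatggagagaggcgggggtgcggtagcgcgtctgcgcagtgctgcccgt
In the Arntl window the ROR elements lay 55 to 46 and 19 to 10 bases before the start. In the Per2 window the D-box lay 192 to 185 bases and the CACGTT 62 to 57 bases before the start. The E-boxes lay 191 to 186 bases before the second Nr1d1 start and 198 to 193 bases before the Tef start. The first listed Nr1d1 start had a single CACGTT match on its minus strand, 174 to 169 bases upstream.

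Levels are RPKM, the reads of a gene scaled by its model's length and by the library's depth, which can be compared between genes. Depth, worked out from the values, was 17.4 to 21.8 M reads per library. A pair of libraries stood apart, with long genes low relative to short ones. Spearman's rho across genes between length and deviation from the group mean was -0.564 for PBS replicate 1, -0.528 for HepLPC replicate 2 and -0.157 to 0.423 for the others. Hepatocyte markers (8 of 8 matched, none at 0) summed to 85660 to 102500 RPKM in normal, 79420 to 88990 in PBS and 86800 to 100000 in HepLPC livers. The 7 duct markers summed to 8.74 to 10.5, 50.3 to 179 and 10.4 to 20.04 RPKM, the 7 stellate and myofibroblast markers to 34.3 to 41.1, 104 to 153 and 64.9 to 73.2, and the 7 macrophage markers to 121 to 154, 247 to 354 and 135 to 195, with none at 0. In whole liver, fewer cells of a type and less RNA per cell cannot be told apart, and the part of this cell mix in the clock gene levels was not tested.

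**Figure D1:**
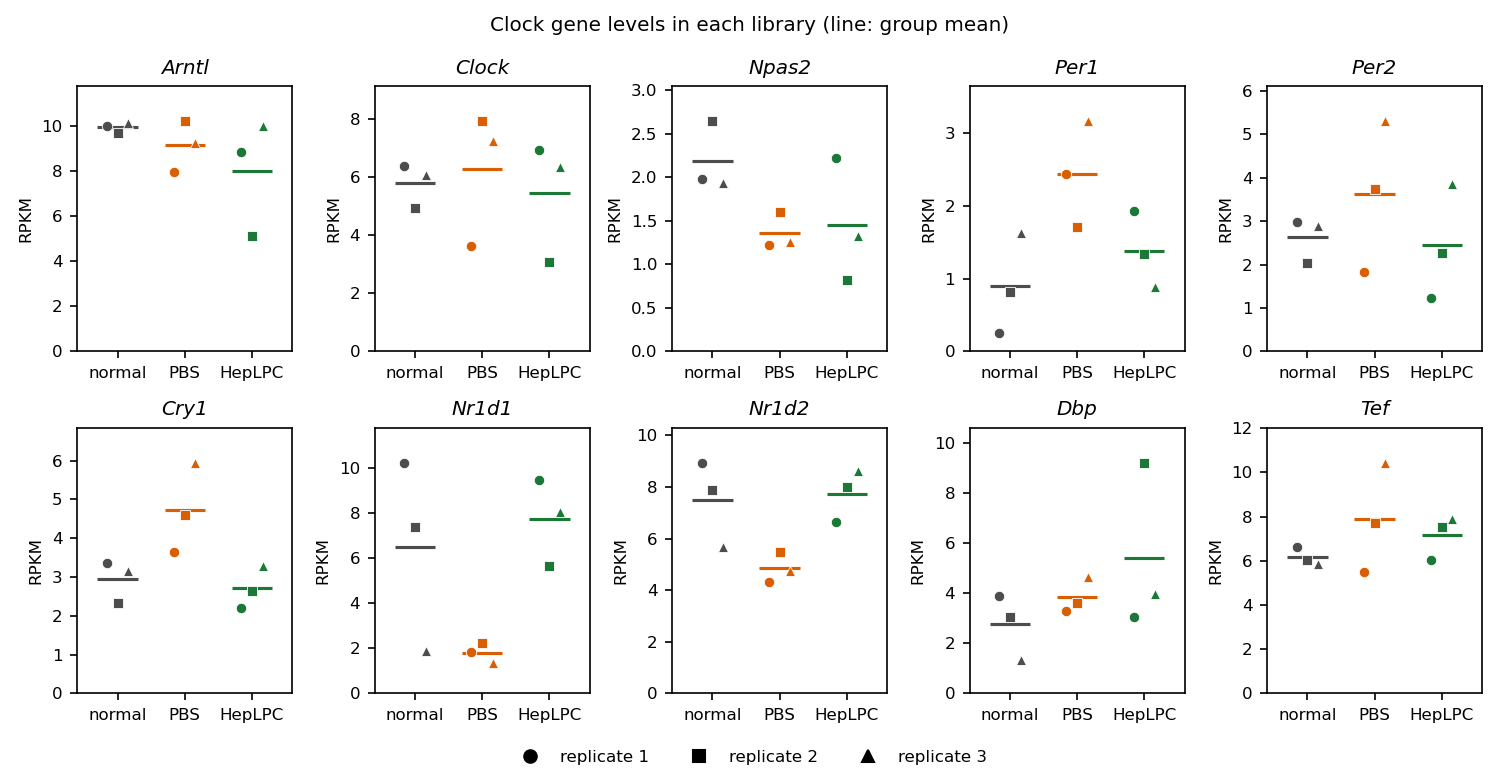
RPKM (linear axes from 0) of the 10 clock genes in each library; symbols are replicates 1 to 3, and lines are group means (n = 3). Nr1d1 was at 1.35 to 2.24 in the 3 PBS libraries and in normal replicate 3 (1.86), and at 5.66 to 10.2 in the other 5 libraries.

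Of the REV-ERB genes, Nr1d1 divided the libraries widely and Nr1d2 narrowly. Nr1d1, REV-ERB alpha, was at 10.2, 7.38 and 1.86 RPKM in normal replicates 1 to 3, at 1.83, 2.24 and 1.35 in PBS and at 9.46, 5.66 and 8.02 in HepLPC livers. No library lay between 2.24 and 5.66: the 3 PBS libraries and normal replicate 3 were low and the other 5 were high. The PBS and HepLPC groups did not overlap, while normal replicate 3 put the normal group across the PBS range. These values rest on 68 to 118 recovered reads in the 4 low libraries and 279 to 520 in the others. Group levels were 6.49 ± 4.25 RPKM in normal, 1.81 ± 0.447 in PBS and 7.71 ± 1.92 in HepLPC livers (mean ± SD, n = 3 each). Nr1d1 overlaps Thra, the thyroid hormone receptor alpha gene, in the RefSeq table, and the sources used here do not give whether counting used the strand, so reads of the pair cannot be told apart. Thra was at 2.78 to 4.81 RPKM over the 9 libraries and did not follow the division. In the 4 libraries with low Nr1d1 it was at 2.81 (normal replicate 3) and 2.96, 4.34 and 4.81 RPKM (PBS replicates 1 to 3). In the other 5 it was at 2.78 to 3.70 RPKM.

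Nr1d2, REV-ERB beta, was at 8.94, 7.86 and 5.66 RPKM in normal, 4.32, 5.49 and 4.74 in PBS and 6.62, 7.99 and 8.61 in HepLPC livers. All 3 PBS libraries lay below all 6 others, and the lowest of those was again normal replicate 3. The group levels were 7.49 ± 1.67, 4.85 ± 0.592 and 7.74 ± 1.02 RPKM (n = 3 each). The range of Nr1d2 over the 9 libraries was 2.07-fold, against 7.58-fold for Nr1d1.

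Of the 3 activators, Arntl and Clock overlapped in RPKM between all groups, and Npas2 was lower in PBS than in normal livers without overlap. Arntl was at 10.02, 9.69 and 10.15 RPKM in normal, 7.99, 10.26 and 9.27 in PBS and 8.88, 5.13 and 10.04 in HepLPC livers. The normal libraries were nearly equal, and HepLPC replicate 2 was the lowest of the 9. Clock was at 6.37, 4.93 and 6.08 RPKM in normal, 3.62, 7.94 and 7.26 in PBS and 6.92, 3.07 and 6.36 in HepLPC livers. PBS replicate 1 and HepLPC replicate 2 were its lowest libraries, and at 10159 bases Clock had the longest gene model of the 10. With a smooth trend on length removed from each library, they remained lowest for Clock, at 2.45 and 2.47 on the log2 scale against 2.65 to 2.96, and HepLPC replicate 2 remained lowest for Arntl, at 2.81 against 3.16 to 3.57. The overlap of Arntl with the normal group was lost: normal libraries, at 3.49 to 3.57, lay above all PBS and HepLPC libraries, at 2.81 to 3.40. For Npas2 the order altered: PBS replicate 3 was then lowest, at 0.92, and HepLPC replicate 2, the lowest library in RPKM, was at 1.22.

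Npas2, which can take the place of CLOCK, was at 1.98, 2.65 and 1.94 RPKM in normal, 1.22, 1.60 and 1.26 in PBS and 2.22, 0.819 and 1.32 in HepLPC livers. All PBS libraries lay below all normal libraries, and the HepLPC libraries spanned both. Clock exceeded Npas2 in every library, by 1.86 to 5.76 times.

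The repressors Per1 and Cry1 had their highest group means in PBS livers. Per1, the first of the period genes, was at 0.257, 0.814 and 1.63 RPKM in normal, 2.44, 1.70 and 3.17 in PBS and 1.92, 1.34 and 0.889 in HepLPC livers. Every PBS library lay above every normal one, by little in the case of PBS replicate 2 (1.70) and normal replicate 3 (1.63), and the HepLPC group overlapped both. Normal replicate 1 held 43 reads of Per1 and PBS replicate 3 held 526, the widest range of the 10 genes at 12.3-fold. Cry1, a cryptochrome and partner of the PER proteins, was at 3.37, 2.34 and 3.15 RPKM in normal, 3.64, 4.59 and 5.95 in PBS and 2.21, 2.65 and 3.28 in HepLPC livers. The PBS libraries were above all 6 others, and the normal and HepLPC groups overlapped. Group levels of Per1 were 0.900 ± 0.691, 2.44 ± 0.734 and 1.38 ± 0.518 RPKM, and of Cry1 2.95 ± 0.545, 4.73 ± 1.16 and 2.71 ± 0.534 (normal, PBS and HepLPC, n = 3 each).

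Per2, the second period gene, was at 2.98, 2.03 and 2.89 RPKM in normal, 1.84, 3.74 and 5.32 in PBS and 1.22, 2.26 and 3.85 in HepLPC livers. All 3 groups overlapped, and the spread within PBS and HepLPC livers exceeded the difference between their means (3.63 ± 1.74 and 2.44 ± 1.32 RPKM, n = 3 each). Per1 and Per2 did not keep a fixed proportion: Per2 was 11.6 times Per1 in normal replicate 1 and below it in PBS replicate 1 (0.753) and HepLPC replicate 1 (0.637).

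Of the output factors, Dbp varied most and Tef little. Dbp was at 3.90, 3.07 and 1.32 RPKM in normal, 3.28, 3.59 and 4.67 in PBS and 3.06, 9.21 and 3.98 in HepLPC livers. Normal replicate 3 was the lowest library and HepLPC replicate 2 the highest, and the other 7 lay between 3.06 and 4.67 RPKM. These extremes rest on 47 and 296 reads. Tef was at 6.61, 6.03 and 5.83 RPKM in normal, 5.48, 7.71 and 10.4 in PBS and 6.05, 7.53 and 7.87 in HepLPC livers. In RPKM, PBS replicate 3 was its highest library and PBS replicate 1 its lowest, so the PBS group covered the range of the other groups. With the length trend removed, HepLPC replicate 2 was highest for Tef (3.39 on the log2 scale, against 3.29 in PBS replicate 3). Dbp was at 0.447 to 0.598 of the Tef level in 7 libraries, at 0.226 in normal replicate 3 and at 1.22 in HepLPC replicate 2. In the last, Dbp lay below Tef with the length trend removed (3.30 against 3.39).

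**Figure D2:**
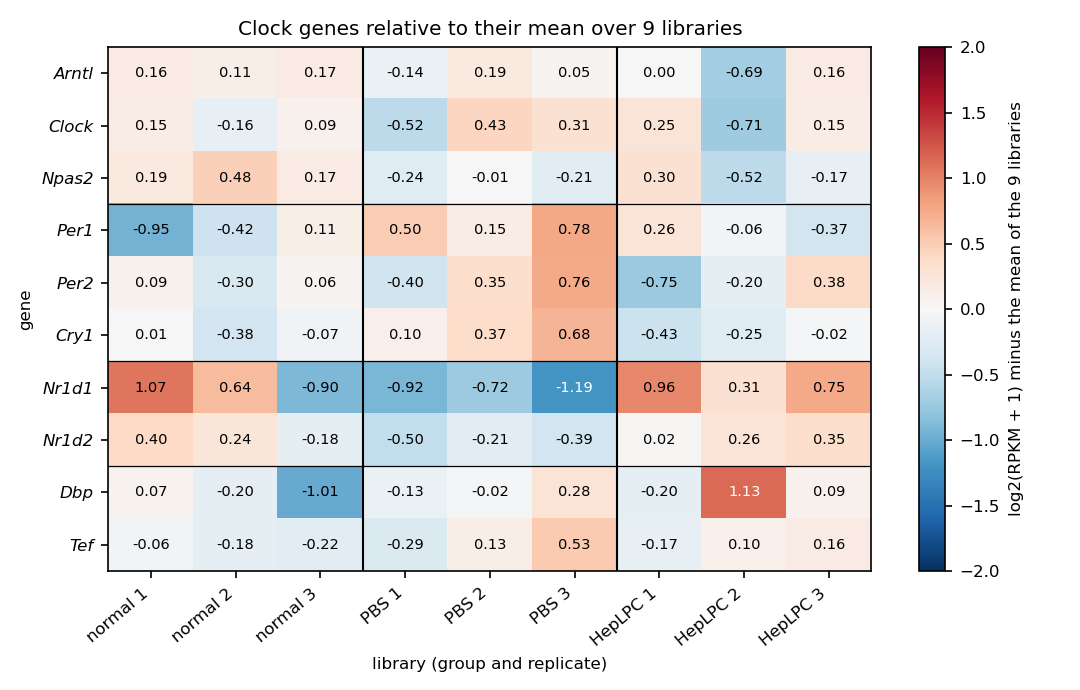
Log2(RPKM + 1) of each clock gene (rows, grouped as activators, PER and CRY repressors, REV-ERB repressors and output factors) minus its mean over the 9 libraries (columns); red is above and blue below the mean. Normal replicate 3 shows -0.90 for Nr1d1 and -1.01 for Dbp, while HepLPC replicate 2 shows 1.13 for Dbp and -0.69 for Arntl.

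Read library by library, the normal group was divided in the balance of Arntl and Nr1d1. The ratio of Arntl to Nr1d1 RPKM, formed inside each library, was 0.980, 1.31 and 5.45 in normal, 4.37, 4.57 and 6.86 in PBS and 0.939, 0.907 and 1.25 in HepLPC livers. The PBS libraries were alike on this scale, the HepLPC libraries were alike at a lower value, and the normal group was divided, with replicate 3 at the PBS values and replicates 1 and 2 at or near the HepLPC values. The Per1 to Nr1d1 ratio was 0.0251, 0.110 and 0.874 in normal, 1.33, 0.758 and 2.35 in PBS and 0.203, 0.237 and 0.111 in HepLPC livers. Normal replicate 3 lay within the PBS values, and normal replicate 1 was the lowest of the 9. Both ratios are divided by Nr1d1, so they are not independent views of its low level in normal replicate 3.

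Dbp, whose peak follows that of Nr1d1, gave another order. The Arntl to Dbp ratio was 2.57, 3.16 and 7.70 in normal, 2.44, 2.86 and 1.99 in PBS and 2.91, 0.557 and 2.52 in HepLPC livers. By this ratio 7 libraries from all 3 groups lay between 1.99 and 3.16, with normal replicate 3 above them and HepLPC replicate 2 below. Normal replicate 3 thus matched the PBS libraries in Nr1d1 but not in Dbp, where it was at 1.32 RPKM and they were at 3.28 to 4.67. HepLPC replicate 2 was the only library with Arntl below Nr1d2 (ratio 0.642, against 1.12 to 1.95 elsewhere) and below Dbp. These ratios were formed after the values were seen and carry no test.

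**Figure D3:**
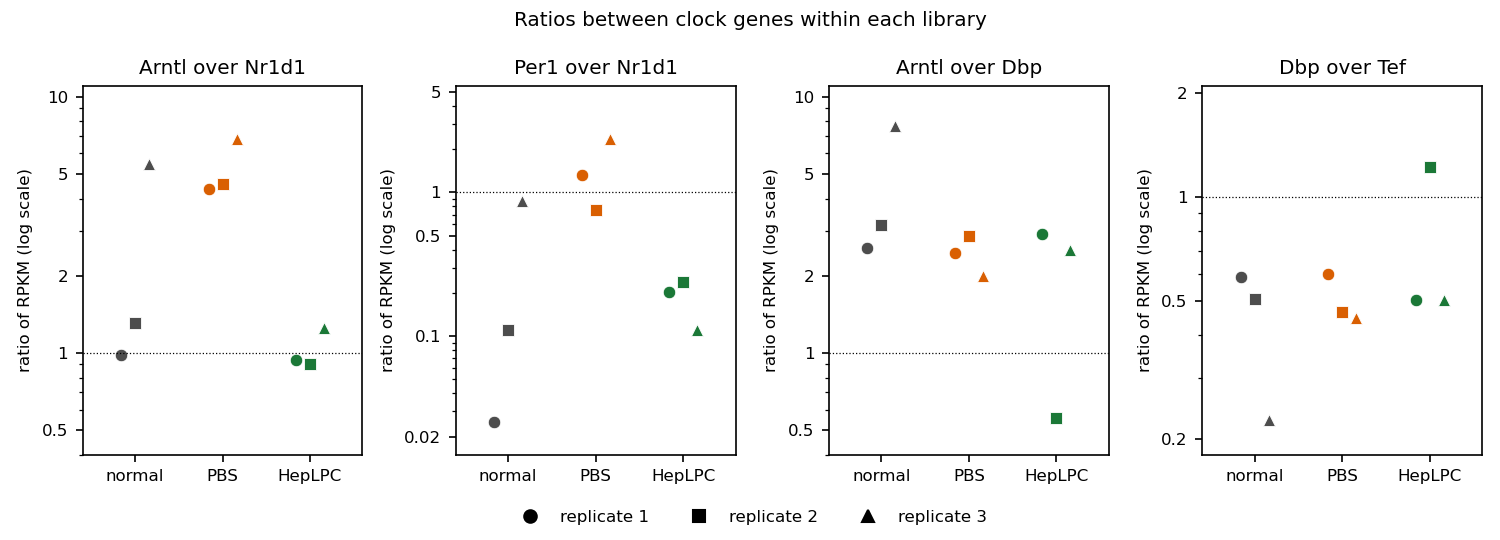
Ratios of RPKM between pairs of clock genes within each library (log axes; dotted line at 1; symbols are replicates). Arntl over Nr1d1 was 4.37 to 6.86 in the PBS libraries and 5.45 in normal replicate 3, and 0.907 to 1.31 in the remaining 5 libraries.

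The comparison of PBS with normal livers set cirrhotic livers of saline-injected rats against normal ones, so toxin and injection go together in it. Groups were tested with limma on log2(RPKM + 1) in the 11124 genes that reached 1 RPKM in 3 or more of the 9 libraries. All 10 clock genes were among them. Calls required a Benjamini-Hochberg adjusted p, taken over the 11124, below 0.05. No clock gene was called (0 of 10), against 11.3% of all tested genes (10.4% higher and 0.944% lower). At an unadjusted p under 0.05 there were 4, Per1 and Cry1 higher and Nr1d1 and Nr1d2 lower in PBS livers, against 27.3% of all genes; limma with voom weights on the recovered reads also gave 0 called and 4 at that level. Per1 differed by 0.90 (log2 fold change, SE 0.28, 95% interval 0.27 to 1.53, adjusted p = 0.0729) and Cry1 by 0.52 (SE 0.19, 0.11 to 0.94, adjusted p = 0.103). Nr1d1 differed by -1.21 (SE 0.43, -2.18 to -0.25, adjusted p = 0.104) and Nr1d2 by -0.52 (SE 0.17, -0.91 to -0.14, adjusted p = 0.0835). These 4 kept their direction in every alternative run, but Per1 and Cry1 weakened in some. Per1 was 0.72, 0.58 and 0.75 with the median of ratios, quantile normalization and the length trend removed. Cry1 was 0.30, 0.29 and 0.32 in these fits, and neither was called in them (limma, adjusted p = 0.189 to 0.326). Without normal replicate 3, the library that shared the low Nr1d1 of the PBS group, limma called 3: Nr1d1 (-1.80, adjusted p = 0.00563), Nr1d2 (-0.69, adjusted p = 0.0466) and Per1 (1.16, adjusted p = 0.0399). In that fit 5.85% of all genes were called. The library left out was singled out by its Nr1d1 level, so the p-value of Nr1d1 in that fit is no independent test. Without normal replicate 1 or 2, Nr1d1 was at -0.82 or -1.03 (adjusted p = 0.278 and 0.298), and 0 clock genes were called. Without PBS replicate 1 and HepLPC replicate 2, 1 of 10 was called, Cry1 (0.67, adjusted p = 0.0336), against 28.5% of all genes in that fit.

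The other 6 had intervals that included 0. Npas2 differed by -0.43 (SE 0.20, -0.89 to 0.03, adjusted p = 0.206), Dbp by 0.42 (SE 0.36, -0.39 to 1.23), Per2 by 0.28 (SE 0.33, -0.46 to 1.03) and Tef by 0.27 (SE 0.20, -0.17 to 0.72). Arntl differed by -0.11 (SE 0.21, -0.57 to 0.35). That interval holds the estimate of Npas2 but not the -1.21 of Nr1d1, whose own interval (-2.18 to -0.25) overlaps it. Clock differed by 0.05 (SE 0.30, -0.63 to 0.72), a value whose sign turned under 3 rescalings and without normal replicate 2, PBS replicate 2 or PBS replicate 3. Values did not overlap between the groups for 4 of 10 clock genes, against 37.7% of all genes. Of these, Per1 and Cry1 were higher (32.7% of all genes) and Npas2 and Nr1d2 lower (4.92%). With the length trend removed the groups did overlap for Per1, while for Arntl all PBS libraries lay below all normal ones. The share of all genes was not taken on those values. The median log2 fold change was 0.16 over the 10 and 0.184 over all tested genes. After rescaling by the median of ratios the median of all genes was -0.044 and 65.8% of called genes were higher, against 91.7% without it; Nr1d2 was then called (-0.76, adjusted p = 0.0216), as it was after quantile normalization (-0.77, adjusted p = 0.0229) and with the length trend removed (-0.70, adjusted p = 0.0362). Of all genes 7.25%, 6.42% and 10.2% were called in these fits.

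The next comparison set cirrhotic livers with injected cells against those with saline. No clock gene was called (0 of 10, against 3.07% of all genes, 0.135% higher and 2.93% lower), and 3 had an unadjusted p under 0.05, against 16.1%; with voom the counts were also 0 and 3. Nr1d1 was higher after the cells by 1.62 (SE 0.43, 0.65 to 2.59, adjusted p = 0.0832) and Nr1d2 by 0.58 (SE 0.17, 0.19 to 0.96, adjusted p = 0.118), while Cry1 was lower by -0.61 (SE 0.19, -1.03 to -0.20, adjusted p = 0.123). These were also the 3 of 10 genes whose groups did not overlap, against 18.4% of all genes: 2 higher, against 2.79%, and 1 lower, against 15.6%. Nr1d1 was called when only these 2 groups were fitted (adjusted p = 0.0315, with 0.773% of all genes called) and without normal replicate 3 (adjusted p = 0.0125, with 1.91%), which changes the estimate of the spread and not the fold change. Of 22 alternatives only these 2 called it, and both leave out normal replicate 3, the library singled out by its Nr1d1 level. Per1 differed by -0.53 (SE 0.28, -1.16 to 0.10) and Per2 by -0.42 (SE 0.33, -1.17 to 0.32). Arntl, Clock, Npas2, Dbp and Tef lay between -0.21 and 0.30, and each took the other sign in at least 1 alternative. The median over the 10 was -0.13 and over all tested genes -0.145 (0.043 after rescaling by the median of ratios). Both comparisons use the same PBS libraries, so their opposite signs for Nr1d1, Nr1d2 and Cry1 are not independent.

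Between HepLPC and normal livers, limma called 0 of 10 clock genes, against 0.0809% of all genes (0.0449% higher and 0.036% lower). An unadjusted p under 0.05 was reached by 0 of 10, against 9.31%, and with voom both counts were also 0. In RPKM the groups overlapped for all 10, while they did not for 15.8% of all genes (12.3% higher and 3.51% lower). With the length trend removed, all HepLPC libraries lay below all normal ones for Arntl (2.81 to 3.40 against 3.49 to 3.57, log2 scale). The share of all genes was not taken on those values. Dbp had the largest difference, 0.72 (SE 0.36, -0.09 to 1.53, adjusted p = 0.597), which was 0.32 without HepLPC replicate 2. Nr1d1 differed by 0.41 (SE 0.43, -0.56 to 1.38, adjusted p = 0.832), an interval that allows a change in either direction, and by -0.18 without normal replicate 3. Arntl and Npas2 were at -0.32 (SE 0.21, -0.79 to 0.14) and -0.41 (SE 0.20, -0.87 to 0.05).

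**Figure D4:**
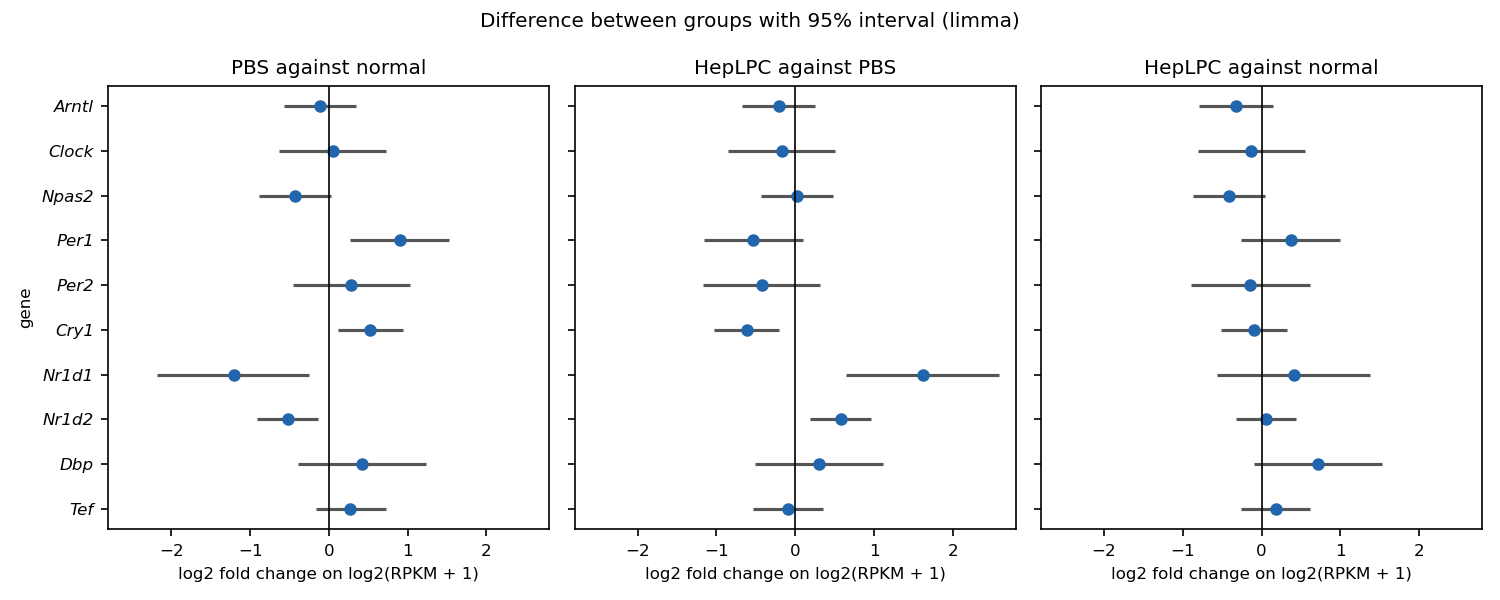
Log2 fold change of each clock gene on log2(RPKM + 1) in the 3 comparisons (points) with its 95% interval from limma (lines). Nr1d1 lies at -1.21 in PBS against normal livers and at 1.62 in HepLPC against PBS livers, and its intervals are the widest.

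The spread between libraries of 1 group was itself uneven. The SD within groups of log2(RPKM + 1), pooled over the 3 groups, had a median of 0.22 over all tested genes. Nr1d1 was at 0.64, above 97.2% of tested genes, Dbp at 0.53 (94.8%), Per2 at 0.49 (93.0%), Clock at 0.44 (90.3%) and Per1 at 0.40 (87.4%). Arntl (0.28), Npas2 (0.27), Tef (0.26), Cry1 (0.24) and Nr1d2 (0.22) lay at percentiles 49.6 to 67.7. The 2 REV-ERB genes thus stood at opposite ends of the 10. For Clock, the longest gene model, the log2 values ran from 2.03 to 3.16, but from 2.45 to 2.96 with the length trend removed. The SDs and percentiles were not taken on those values.

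**Figure D5:**
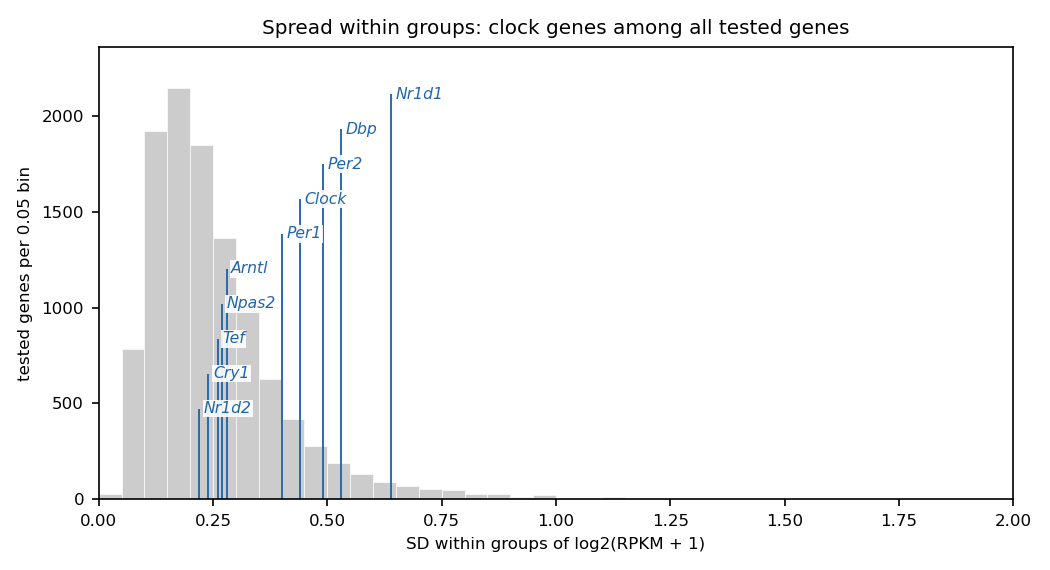
SD within groups of log2(RPKM + 1) for the 11124 tested genes (grey bars, genes per bin; the last bin also holds larger values) and for the clock genes (blue lines, whose heights carry no value). Nr1d1 at 0.64 and Dbp at 0.53 lie in the upper tail, and Nr1d2 at 0.22 lies at the median.

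Other genes of the clock were taken as a list of 16, of which 11 were tested. Limma called 0 of 11 in each comparison, against 11.3%, 3.07% and 0.0809% of all genes. At an unadjusted p under 0.05 there were 3 in PBS against normal, all higher, 4 in HepLPC against PBS, all lower, and 1 in HepLPC against normal, lower. Of all genes 27.3%, 16.1% and 9.31% had such a p in either direction. With voom 1, 0 and 0 were called, against 10.7%, 2.51% and 0.0% of all genes. The 1 was Csnk1e, casein kinase 1 epsilon, which phosphorylates PER proteins: it was at 2.42, 2.42 and 2.08 RPKM in normal and 3.04, 4.32 and 4.29 in PBS livers (0.55, SE 0.16, adjusted p = 0.0501, and 0.0489 with voom). Csnk1e was singled out after its values were seen.

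Of 17 genes known as rhythmic outputs in liver, 15 were tested. In PBS against normal livers 2 rose (10.4% of all genes did) and 1 fell (0.944%), together 3 of 15 against 11.3%, and the list's median was 0.50, against 0.184 for all genes. Por, the reductase that feeds electrons to cytochrome P450 enzymes, rose from 25.9, 23.9 and 29.6 to 45.0, 38.6 and 62.8 RPKM (0.83, SE 0.18, adjusted p = 0.0172). The Por call was lost without normal replicate 1 (adjusted p = 0.0627), normal replicate 2 (0.0763) or PBS replicate 3 (0.0503), and after rescaling by the median of ratios (0.105). Cyp7a1, which catalyses the limiting step of bile acid synthesis, rose by 2.18 (SE 0.55, adjusted p = 0.0338), a call lost in 12 of 22 alternatives, among them leaving out any 1 of the normal libraries, PBS replicate 1 or PBS replicate 3 (adjusted p = 0.0501 to 0.108). Rgs16, a regulator of G protein signalling, fell from 3.11, 8.48 and 2.22 to 0.756, 0.173 and 0.320 RPKM (-1.84, SE 0.36, adjusted p = 0.0114). It stayed called in all 21 alternatives that tested it, among them the run with no filter on low values. Only the normal libraries reached 1 RPKM, as HepLPC livers were at 0.299, 0.512 and 0.0632. Rgs16 thus passed the filter only through the group where it was high. The size of its fall rests on PBS values near the floor. None of the 15 was called in HepLPC against PBS or against normal livers (0 by limma and 0 by voom). Of all genes limma called 3.07% and 0.0809%. An unadjusted p under 0.05 was reached by 3 of 15 in each, against 16.1% and 9.31% of all genes.

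Lists of genes that answer cues which also reach the clock had calls in comparisons with PBS livers. In HepLPC against normal livers they had 0, against 0.0809% of all genes. Of all genes 10.4% rose and 0.944% fell in PBS against normal livers. The counts of genes that rose there, 1 of 7 to 1 of 9 in a list, are near that share. The counts that fell, 1 of 7 and 2 of 9, are above theirs, but no list was tested against these shares. Of 9 glucocorticoid-induced genes 1 rose in PBS against normal and fell in HepLPC against PBS livers, the metallothionein Mt2A (2.67, adjusted p = 0.00368, and -2.43, adjusted p = 0.0171). In HepLPC against PBS livers 2.93% of all genes fell. The second Mt2A call was lost without PBS replicate 3 (adjusted p = 0.0746) or HepLPC replicate 1 (0.0648). Of 9 fasting-induced genes 2 fell in PBS against normal livers, among them the hormone Fgf21 (-1.24). Of 7 feeding-induced genes 1 fell, the desaturase Scd (-1.56). Of 7 temperature-responsive genes 1 rose, the cold-induced Rbm3 (0.78), and of 8 immediate early genes 1 rose, Egr1 (1.61). The calls of Fgf21, Scd, Rbm3 and Egr1 were each lost without at least 1 library: normal replicate 1 (Fgf21), 2 (Scd, Rbm3) or 3 (Fgf21, Egr1), or PBS replicate 1 (Fgf21), 2 (Egr1) or 3 (Fgf21, Egr1).

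Likeness to single clock genes was ranked by Pearson's r of log2(RPKM + 1) over the 9 libraries, among tested genes outside the 10, as a description in which the points share their libraries. Tspan14 (r = 0.988), Ceacam1 (0.976), RGD1561777 (0.970), Crtc2 (0.968) and Dnajb12 (0.965) were most like Arntl, and Foxp3 (-0.978), Sla2 (-0.977), Rpl36al (-0.976), Dnajc21 (-0.975) and Kcnab1 (-0.971) most opposite. Without PBS replicate 1 and HepLPC replicate 2, the libraries farthest from the Arntl median, the r of these 10 ranged from 0.498 to 0.811 and from -0.314 to -0.888. Fam58b (0.971), Peo1 (0.934), Tmem42 (0.932), Rbpms2 (0.923) and Becn1 (0.922) were most like Dbp, and Zfand1 (-0.929), Suclg2 (-0.874), Suox (-0.869), Pnpla5 (-0.858) and Sdha (-0.855) most opposite. Without normal replicate 3 and HepLPC replicate 2, the r with Dbp was 0.922 for Rbpms2 and between 0.462 and 0.746 for the other 4 alike genes. For the opposite genes it then ranged from -0.226 (Suox) to -0.602 (Pnpla5). For Nr1d1, added after its values were seen, Extl1 (0.945), Mgat4b (0.912) and Mir22 (0.902) led, and their r was 0.916, 0.862 and 0.824 without PBS replicates 1 and 3.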

How the data were processed

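Whole liver RNA (TRIzol, DNase I, TruSeq libraries, per the labels' protocols) was measured in 9 libraries, grouped and numbered by their titles. The authors deposited RPKM values, per the file headers, in 40154 rows per library. HISAT2 and StringTie are named in the submitters' processing notes, as is hg19, a human build, although rows carry rat symbols, so the build, annotation and strand setting behind the values are uncertain. The RPKM steps gave whole reads, to within 0.01 read, for all 20959 genes tried (those with a value in 3 or more libraries), and 99.8% of the resulting lengths were whole bases. All replicate pairs differed by more than sampling noise.

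Limma 3.58.1 (R 4.3.3; trended eBayes, 2-sided) was fitted on log2(RPKM + 1) with 1 term per group over all 9 libraries, leaving 6 residual degrees of freedom, with Benjamini-Hochberg adjustment over 11124 genes. Fold changes on this scale understate changes of low genes. The scripts were tested on simulated data.

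Text names the 10 clock genes, up to 4 called genes per list and the 5 genes most like and most opposite to Arntl and Dbp; other names are marked as chosen later. Members and lists were chosen with earlier results of these data known. Of 133 list entries, 2 (Hspa1b and Hba-a2) matched no row. Some genes of the lists are not reported here. Alternatives are given in the closing section.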

Additional observations from a re-analysis of the deposited data

How the results depend on the processing

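Across 22 alternatives per comparison, the 30 clock gene differences gave 645 values: 600 kept their direction and stayed uncalled, 9 became called and 36 took the other sign, all of these uncalled. Per1 and Npas2 could not be tested at a minimum of 5 RPKM, nor could Per2, Cry1 and Dbp. In PBS against normal livers the 0 called clock genes became 1 with the median of ratios, quantile normalization or the length trend removed, 1 with PBS replicate 1 and HepLPC replicate 2 both left out, and 3 without normal replicate 3 (0 to 3 when leaving out single libraries). In HepLPC against PBS livers 0 became 1 with only the 2 groups compared and without normal replicate 3, a range of 0 to 1. The replicate numbers did not pair the libraries (same-numbered deviations correlated at -0.412 to 0.310), and the replicate block left 0 clock genes called in each comparison. All-gene counts of 1262, 341 and 9 ranged over 562 to 3168, 86 to 431 and 0 to 16. With the replicate block they were 787, 198 and 1. The share of higher calls in PBS against normal livers, 91.7%, was 65.8% with the median of ratios.

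Sign changes were as follows, each range covering the fits that leave out libraries. Clock in PBS against normal livers was -0.20 (median of ratios), -0.19 (quantile), -0.094 (length trend removed, with or without the replicate block) and -0.13 to 0.34. In HepLPC against PBS livers Clock was 0.022, 0.0065 and 0.044 under those settings and -0.47 to 0.13, and Tef 0.12, 0.052 and 0.098 and -0.34 to 0.11. Npas2 was -0.0018 (pseudocount 0.1), -0.0067 (same sum), -0.013 (voom) and -0.19 to 0.22. Arntl ranged from -0.38 to 0.044, and Dbp from -0.098 to 0.57 (-0.18 without PBS replicate 1 and HepLPC replicate 2). Rgs16 was 0.045 with the length trend removed and -0.25 to 0.038, Fgf21 -0.17 to 0.29 and Cyp7a1 -0.22 to 0.83. In HepLPC against normal livers Nr1d2 was -0.019 (quantile) and -0.11 to 0.18, Nr1d1 -0.18 to 0.81, Per2 -0.42 to 0.14, Cry1 -0.21 to 0.0091, Clock -0.31 to 0.17 and Mt2A -0.35 to 0.64. The cause was not tested. The lowest libraries of Per1 and Dbp held 43 and 47 reads, so these values carry counting error, whose part was not tested.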
